A study of Homo sapiens and Mus musculus with 10 samples.

Results

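DUSP4, DUSP5, DUSP6, SPRY2, SPRY4, SPRED1, SPRED2, ETV1, ETV4 and ETV5 are feedback inhibitors and ETS-family outputs of the RAS-ERK pathway. These 10 gene symbols were looked up among the 63140 gene rows of the human table, and all 10 were found and passed the filter on low values that left 14399 genes for testing. The libraries were made from A375, an established human melanoma line that carries an activating BRAF mutation. Cells had been kept for 24 h with LL-37 at 80 µg/mL (n = 3) or without the peptide (Ctrl, n = 3), in biological triplicate according to the series text. LL-37 is the antimicrobial peptide released from cathelicidin, and the comparison asked how melanoma cells respond to it. All 6 libraries come from 1 cell line, so nothing here extends to other melanomas. The protocol field names cultured keratinocytes as the starting material for every library, although the labels name A375 cells.

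Growth factor receptors activate RAS, RAF, MEK and ERK in turn, and active ERK switches on genes that damp the same chain. DUSP proteins remove phosphate from ERK and its relatives, Sprouty (SPRY) proteins act between the receptors and RAF, and SPRED proteins bring the RAS-inactivating protein neurofibromin to the membrane. ETV1, ETV4 and ETV5 form the PEA3 group of ETS transcription factors. ERK also releases some of these genes from the repressor Capicua, the product of CIC. In BRAF-mutant melanoma the chain is held on by mutant BRAF, and these genes serve as a transcript readout of its output.

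With LL-37, none of the 10 genes passed the threshold, and in 2 of the 3 LL-37 libraries nearly all stood close to their Ctrl levels. In LL-37 replicate 3 every one of the 10 lay below all 3 Ctrl libraries, at 30.9% to 67.2% of its Ctrl mean, in a library in which 76.8% of all tested genes lay below every Ctrl library. In LL-37 replicates 1 and 2 the 10 genes lay at 93.9% to 124% of the Ctrl mean. In replicate 1, 6 of the 10 lay above all 3 Ctrl libraries, beside 30.8% of all tested genes. In replicate 2 it was 2 of the 10, beside 2764 of 14399 genes. ETV4 had the highest values relative to Ctrl in those 2 libraries, at 124% and 118% of its Ctrl mean, but it too missed the threshold.

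The promoters of DUSP6 and ETV1 are shown because they hold the 8-base motif that Capicua binds. Windows from 250 bases before to 50 bases after the annotated start were taken from RefSeq (GRCh38.p14), which had windows for 6 of the 10 genes, 14 windows in all since several genes have more than 1 start. No window was searched for DUSP4, DUSP5, ETV4 or ETV5. Capitals mark the Capicua motif, searched on both strands as TGAATGAA, TGAATGGA, TCAATGAA or TCAATGGA. The DUSP6 window is chr12:89352452-89352751 and the ETV1 window is chr7:13991376-13991675, both on the minus strand and written 5′ to 3′ along the gene.
DUSP6: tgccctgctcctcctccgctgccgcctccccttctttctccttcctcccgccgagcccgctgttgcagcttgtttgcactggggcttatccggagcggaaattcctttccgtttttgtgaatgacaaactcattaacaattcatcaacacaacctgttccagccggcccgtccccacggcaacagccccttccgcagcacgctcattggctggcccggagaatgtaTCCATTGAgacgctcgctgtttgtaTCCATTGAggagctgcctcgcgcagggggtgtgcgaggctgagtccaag
ETV1: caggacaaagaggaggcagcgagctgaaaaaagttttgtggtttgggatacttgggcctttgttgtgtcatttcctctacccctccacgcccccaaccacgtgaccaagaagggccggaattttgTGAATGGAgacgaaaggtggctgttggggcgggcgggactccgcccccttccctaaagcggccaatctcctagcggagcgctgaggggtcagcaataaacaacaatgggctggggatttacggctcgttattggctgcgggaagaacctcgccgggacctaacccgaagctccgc
The DUSP6 window held the motif at 2 places, both on the strand opposite to the gene, the first beginning 24 bases before the start and the second beginning 1 base after it. In the ETV1 window the motif began 125 bases before the start, on the strand of the gene. A Capicua motif was in 2 of the 14 windows and in 3.77% of all 35116 windows. Other windows of ETV1 lacked it. The ETS motif CCGGAA was in 4 of the 14 windows, from SPRY2 and ETV1, and in 17.2% of all windows. The AP-1 motif TGANTCA was in 1 SPRED2 window and in 7.71% of all windows. The ETS and Capicua matches in the ETV1 window shown did not overlap. These are matches of letters and show no binding.

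Levels are in TPM, transcript abundances scaled for length and to a common total, from which the sequencing depth cannot be read. One of the LL-37 libraries, replicate 3, was unlike the rest. At a level of at least 1 TPM it showed 12991 genes, where the other libraries showed 14304 to 14555. Its median difference from the Ctrl mean over all tested genes was -0.59 on the log2(TPM + 1) scale, against 0.02 and -0.03 in LL-37 replicates 1 and 2. Log2 changes and counts are therefore given with and without that library. As a check of the cells, SOX10, a neural crest and melanoma transcription factor, was at 147 to 387 TPM in LL-37 libraries and 266 to 296 TPM in Ctrl libraries, while the pigment genes MLANA and TYR were at or near 0. The 10 melanoma markers summed to 1485 to 2701 TPM with LL-37 and 2583 to 2845 TPM in Ctrl. MITF, the melanocyte master regulator, had 4.40, 4.35 and 1.75 TPM with LL-37, against 5.45, 4.57 and 5.23 TPM in Ctrl. It was with S100A1 and VIM 1 of the 3 melanoma markers, of 6 tested, that were lower without overlap. Of all tested genes, 10.3% were lower without overlap. Of 8 keratinocyte markers, KRT1, KRT6A, TP63 and DSG3 were listed at 0 in every library and KRT5 reached 0.14 TPM. KRT10 and DSC3, 2 of the 3 keratinocyte markers tested, were also lower with LL-37 without overlap. The 8 summed to 21.3 to 26.8 TPM with LL-37 and 28.8 to 29.96 TPM in Ctrl, and their part in the results below was not tested. Summed markers were 3.41 to 7.97 TPM with LL-37 and 7.18 to 8.02 TPM in Ctrl for fibroblasts, 22.55 to 41.6 and 35.8 to 42.8 TPM for leukocytes, and 0.94 to 3.27 and 2.08 to 2.56 TPM for endothelium. In bulk samples, fewer expressing cells and less RNA per cell cannot be told apart.

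The dual-specificity phosphatase genes lay within or above their Ctrl range in LL-37 replicates 1 and 2. DUSP6, the cytoplasmic ERK phosphatase and the member most often used as a readout of ERK activity, had 72.4, 62.5 and 39.4 TPM in LL-37 replicates 1, 2 and 3, against 62.3, 61.2 and 68.4 TPM in Ctrl. Replicate 1 lay above the Ctrl range, replicate 2 within it and replicate 3 below it. DUSP4, a nuclear phosphatase of ERK and other MAP kinases, had 83.4, 82.2 and 33.97 TPM with LL-37, against 80.35, 74.7 and 83.2 TPM in Ctrl. LL-37 replicate 1 was just above the highest Ctrl library and replicate 2 just below it. DUSP5, a nuclear phosphatase for ERK, had 29.3, 29.3 and 13.7 TPM with LL-37, against 27.9, 24.96 and 26.3 TPM in Ctrl. The groups did not overlap for DUSP5 once LL-37 replicate 3 was left out, with the LL-37 libraries higher. Log2 changes are on the log2(TPM + 1) scale. For DUSP6 the log2 change was -0.18 ± 0.23 (SE) over the 6 libraries and 0.07 ± 0.09 over the 5 without LL-37 replicate 3, and for DUSP4 it was -0.36 ± 0.34 and 0.06 ± 0.07. For DUSP5 it was -0.20 ± 0.30 and 0.15 ± 0.08, so all 3 estimates had the opposite sign without that library.

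**Figure D1:**
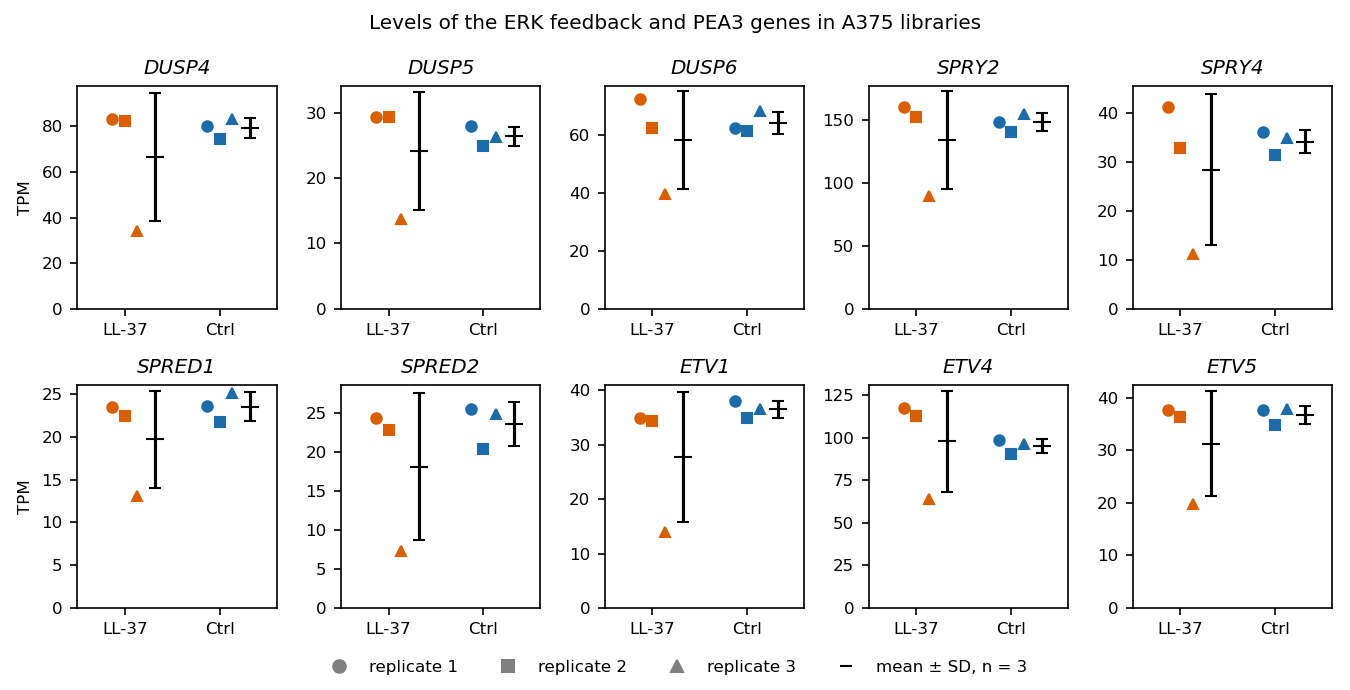
TPM of each of the 10 genes in the 3 LL-37 libraries (orange) and the 3 Ctrl libraries (blue), with a marker shape per replicate number and black bars for the mean ± SD of each group (n = 3). In every panel the LL-37 replicate 3 triangle is the lowest of the 6 points.

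The Sprouty and SPRED genes followed the same arrangement. SPRY2, the most abundant of the 10, had 160, 153 and 89.7 TPM with LL-37, against 149, 141 and 155 TPM in Ctrl. LL-37 replicate 1 lay just above the Ctrl range and replicate 2 within it. SPRY4, its relative, had 41.1, 32.8 and 11.2 TPM with LL-37, against 35.98, 31.4 and 34.9 TPM in Ctrl. LL-37 replicate 1 was above every Ctrl library and replicate 2 was among them, so the 2 LL-37 libraries that resembled Ctrl overall differed from each other for this gene. SPRED1 had 23.5, 22.4 and 13.1 TPM with LL-37, against 23.6, 21.75 and 25.2 TPM in Ctrl. SPRED2 had 24.25, 22.7 and 7.27 TPM with LL-37, against 25.5, 20.3 and 24.8 TPM in Ctrl. For both SPRED genes the first 2 LL-37 libraries lay inside the Ctrl range. Log2 changes with all libraries ran from -0.52 ± 0.43 (SE) for SPRED2 to -0.19 ± 0.23 for SPRY2. Without LL-37 replicate 3 they ran from -0.03 ± 0.09 for SPRED1 to 0.11 ± 0.11 for SPRY4. NF1, the gene of neurofibromin, had 18.00, 17.4 and 6.22 TPM with LL-37, against 18.7, 15.1 and 17.9 TPM in Ctrl, a log2 change of -0.41, or 0.04 with that library left out.

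The 3 PEA3 genes stood differently to Ctrl in LL-37 replicates 1 and 2. ETV4 had 118, 113 and 63.9 TPM with LL-37, against 98.5, 90.7 and 96.0 TPM in Ctrl. Replicates 1 and 2 were above every Ctrl library and replicate 3 was below every one. ETV5 had 37.7, 36.4 and 19.7 TPM with LL-37, against 37.7, 34.8 and 37.8 TPM in Ctrl, with replicates 1 and 2 inside the Ctrl range. ETV1 had 34.9, 34.3 and 13.9 TPM with LL-37, against 38.05, 34.9 and 36.6 TPM in Ctrl. It was the 1 member whose groups did not overlap with all libraries, lower with LL-37, but the closest values of the groups were 34.89 TPM in LL-37 replicate 1 and 34.92 TPM in Ctrl replicate 2. ETV4 gave a log2 change of -0.01 ± 0.24 (SE) over the 6 libraries and 0.27 ± 0.06 once LL-37 replicate 3 was left out. ETV1 gave -0.49 ± 0.35 and -0.08 ± 0.07, and ETV5 gave -0.28 ± 0.26 and 0.01 ± 0.08. CIC, the gene of the repressor of all 3, had 37.35, 33.65 and 12.3 TPM with LL-37, against 35.0, 31.75 and 36.98 TPM in Ctrl, a log2 change of -0.45 over the 6 libraries, or 0.04 without LL-37 replicate 3.

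**Figure D2:**
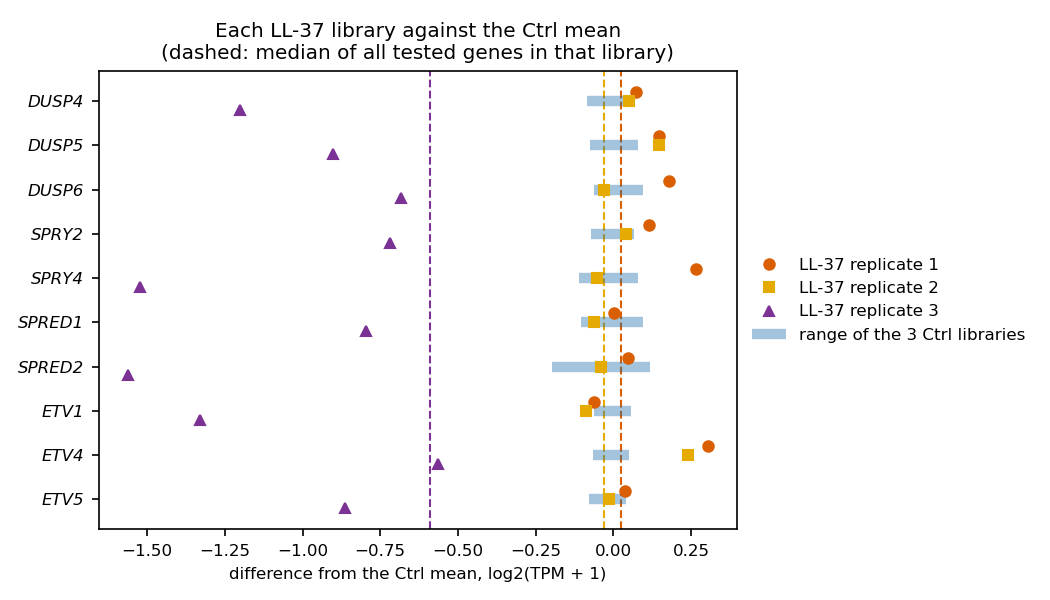
Difference of each LL-37 library from the Ctrl mean on the log2(TPM + 1) scale for the 10 genes (circles, squares and triangles for replicates 1, 2 and 3), with blue bands for the range of the 3 Ctrl libraries and dashed lines for the median of all tested genes in each LL-37 library. Replicate 3 lies between -1.56 and -0.56, left of every Ctrl band, and ETV4 is the rightmost gene in replicates 1 and 2, at 0.30 and 0.24.

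In the limma fit over all 14399 genes, 0 of the 10 passed a Benjamini-Hochberg adjusted p of 0.05, and 0% of all tested genes did. Adjusted p-values of the 10 ran from 0.739 to 0.99, and 0 of the 10 had an unadjusted p under 0.05, against 363 genes (2.52%) overall. The median log2 change of the 10 was -0.28, beside -0.20 for all tested genes. Only ETV1 had groups that did not overlap, lower with LL-37, where 12.4% of all tested genes had no overlap, 10.3% lower and 2.13% higher. Leaving out Ctrl replicate 2 gave 3 of the 10 without overlap, where this held for 26.7% of all tested genes. Median-of-ratios scaling gave 2 of the 10 (12.6% of all tested genes) and removal of length trends gave 0 (12.8%). Rescaling without mitochondrially encoded genes also gave 0 (11.7%). All 10 estimates were negative in TPM as deposited, where 2833 of all 14399 tested genes had a positive one. Of the 10, 4 were positive with median-of-ratios scaling, 2 with quantile normalization and 3 with length trends removed. Standard errors were 0.23 to 0.45, so differences of the size seen in LL-37 replicates 1 and 2 were not detectable with all libraries.

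Without LL-37 replicate 3, again 0 of the 10 passed in limma, where 0.118% of all tested genes did, made up of 0.0486% higher and 0.0694% lower. ETV4 came nearest, with an unadjusted p of 0.00285 and an adjusted p of 0.199 in limma. It was the only one of the 10 with an unadjusted p under 0.05, against 9.01% of all tested genes. The other 9 had adjusted p-values of 0.684 to 0.998. The median log2 change was 0.07, beside 0.00 for all tested genes. Of the 10 estimates 8 were positive, beside 7016 of all 14399 tested genes. ETV4 and DUSP5 were higher without overlap and ETV1 lower, which is 2 and 1 of the 10 beside 12.3% and 12.9% of all tested genes. With 2 libraries on the LL-37 side, these values rest on a single pair.

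The 10 genes differed among themselves in LL-37 replicate 3. SPRED2 and SPRY4 were the lowest relative to Ctrl, at 30.9% and 32.9% of the Ctrl mean, and 4.66% and 5.43% of all tested genes had an equal or lower difference in that library. ETV1 and DUSP4 followed at 38.1% and 42.8%. DUSP6, SPRY2 and ETV4 were the highest, at 61.6%, 60.4% and 67.2%, and ETV4 lay near the middle of all tested genes, with 51.5% at or below it. ETV4 was also the only one of the 10 above the library's median difference, by 0.02 log2 units, while the other 9 lay below it, SPRED2 by as much as 0.97. In LL-37 replicate 1, 8 of the 10 lay above the library's median and in replicate 2, 5 did.

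Transcript length moved with the difference in LL-37 replicate 3 across the whole table. Tested genes whose longest transcript was at most 2455 bases had a median difference of -0.18 in that library, those above 4442 bases had -0.99 and those between had -0.62. Of the 10, only ETV4, at 2429 bases, fell in the short class, 5 fell in the middle and 4 in the long one. Against the median of its own length class, 9 of the 10 were lower, ETV4 by 0.38, SPRY4 by 0.53 and SPRED2 by 0.94 log2 units. The exception was SPRED1, the longest at 7780 bases, which was 0.19 above its class. These comparisons depend on the class limits. ETV4 and DUSP6, at 2429 and 4400 bases, each lay just under a limit. Their differences of -0.56 and -0.68 were above the medians of the next longer class, -0.62 and -0.99. Across the 10 genes Spearman's rho between length and difference was -0.33, and across 13878 genes with a length it was -0.56. Both are within 1 library, whose genes share its preparation and its total. The part of length in the low values of the 10 genes was not tested.

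**Figure D3:**
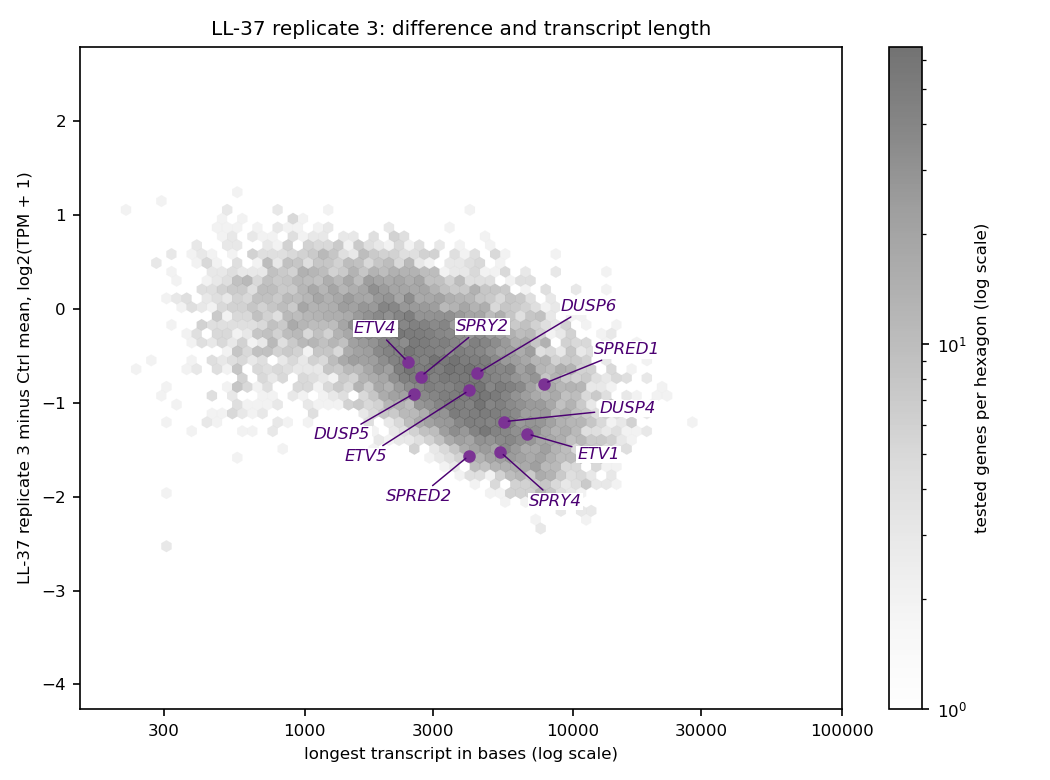
Difference of LL-37 replicate 3 from the Ctrl mean, log2(TPM + 1), against the longest annotated transcript in bases (log scale) for 13878 tested genes (grey hexagons, darker with more genes) and the 10 genes (purple). Longer transcripts lie lower, and SPRED2 at -1.56 lies below its class median of -0.62 while SPRED1 at -0.80 lies above its class median.

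Ratios between the genes within a library do not depend on the library's total, and were examined after the values had been seen. In 15 of the 45 pairs of the 10 genes the ratio did not overlap between the groups with all 6 libraries. The share was 13.3% over all pairs of tested genes above 0 in every library. ETV4 was on the higher side in 8 of its 9 pairs with LL-37 and its ratio to SPRY4 overlapped. These 9 pairs share ETV4, whose ratio was higher without overlap to 36.1% of all such genes. Of the 36 pairs without ETV4, 7 did not overlap. Among these were the pairs of ETV1 with DUSP4, DUSP5, SPRY2 and ETV5, which share ETV1, so the pairs are not independent. The ratio of ETV4 to ETV5 was 3.12, 3.09 and 3.24 in LL-37 libraries, against 2.61, 2.61 and 2.54 in Ctrl libraries. LL-37 replicate 3, far below the other LL-37 libraries in the level of both genes, was close to them in this ratio. Of all tested genes, 6.43% had a higher ratio to ETV5 without overlap, and 12.6% without LL-37 replicate 3. The ratio of ETV4 to ETV1 was 3.37, 3.28 and 4.59 with LL-37, against 2.59, 2.60 and 2.62 in Ctrl, where 20.2% of tested genes had a higher ratio to ETV1 without overlap, and 25.3% without LL-37 replicate 3. ETV4 to DUSP6 was 1.62, 1.80 and 1.62, against 1.58, 1.48 and 1.41. ETV4 to SPRY2 was 0.733, 0.737 and 0.713, against 0.661, 0.643 and 0.619. The longest transcripts of ETV1 and ETV5 have 6740 and 4111 bases, against 2429 for ETV4, and the part of length in these ratios was not tested. Without LL-37 replicate 3, ETV4 was again higher in 8 of its 9 pairs, where its ratio was higher without overlap to 66.3% of all genes. In total, 21 of the 45 pairs did not overlap then, 13 of them among the 36 without ETV4, beside 28.1% of all pairs of genes.

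**Figure D4:**
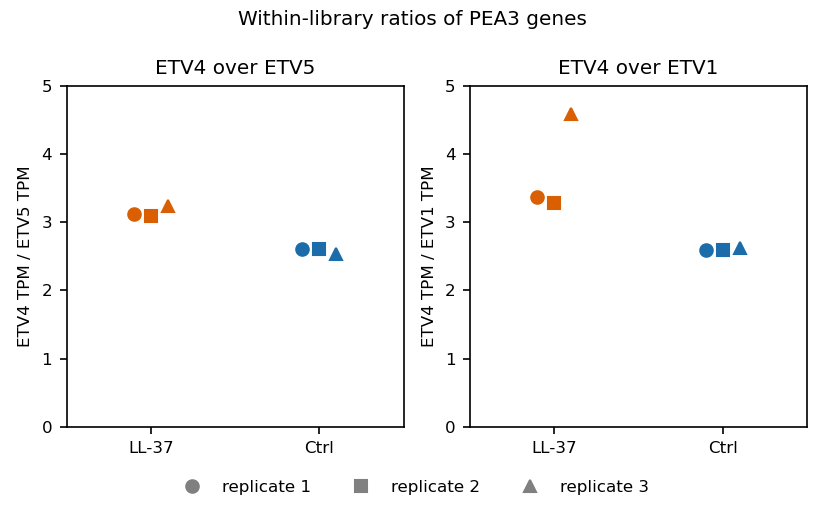
Within-library ratio of ETV4 TPM to ETV5 TPM (left) and to ETV1 TPM (right) in the 3 LL-37 libraries (orange) and the 3 Ctrl libraries (blue), with a marker shape per replicate number. In both panels the LL-37 points lie above the Ctrl points, at 3.09 to 3.24 against 2.54 to 2.61 for ETV5.

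On GRCh38 with GENCODE 29, the phosphatase genes lie on 3 chromosomes. DUSP4 (ENSG00000120875) spans 29333064 to 29350668 on chromosome 8, minus strand, DUSP5 (ENSG00000138166) spans 110497838 to 110511544 on chromosome 10, plus strand, and DUSP6 (ENSG00000139318) spans 89347232 to 89353271 on chromosome 12, minus strand. SPRY2 (ENSG00000136158) spans 80335976 to 80340951 on chromosome 13 and SPRY4 (ENSG00000187678) spans 142310427 to 142326455 on chromosome 5, both on the minus strand. SPRED1 (ENSG00000166068) spans 38252326 to 38357249 on chromosome 15, plus strand, and SPRED2 (ENSG00000198369) spans 65310851 to 65432637 on chromosome 2, minus strand. The PEA3 genes are all on the minus strand: ETV1 (ENSG00000006468) at 13891228 to 13991425 on chromosome 7, ETV4 (ENSG00000175832) at 43527844 to 43579620 on chromosome 17 and ETV5 (ENSG00000244405) at 186046308 to 186110318 on chromosome 3.

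Per length, Ctrl levels placed SPRY2 first at 148 ± 7.12 TPM (SD, n = 3), followed by ETV4 at 95.1 ± 3.99, DUSP4 at 79.4 ± 4.31 and DUSP6 at 63.96 ± 3.86 TPM. These 4 had ranges that did not overlap one another. ETV5 at 36.8 ± 1.74, ETV1 at 36.5 ± 1.57 and SPRY4 at 34.1 ± 2.38 TPM formed a group whose ranges overlapped. DUSP5 at 26.4 ± 1.48, SPRED2 at 23.5 ± 2.84 and SPRED1 at 23.5 ± 1.70 TPM were lowest, with neighbours overlapping. With LL-37 the means kept SPRY2 and ETV4 first and second, at 134 ± 38.8 and 98.0 ± 29.6 TPM, replicate 3 being the lowest library for both.

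Other genes of the pathway were taken in 5 lists by role, 80 genes of which 77 were tested, all but DUSP8, ERG and SPDEF. In limma 0 of the 77 passed with all libraries and 0 passed without LL-37 replicate 3, and 0 of the 77 had an unadjusted p under 0.05 with all libraries. The 16 cascade genes had a median log2 change of -0.22 with all libraries and 0.04 without that library, and the 15 receptors and adaptors had -0.36 and 0.02. Without LL-37 replicate 3, 4 cascade genes were higher and 2 lower without overlap, and 2 receptor or adaptor genes were higher and 0 lower, beside 12.3% higher and 12.9% lower of all tested genes. In each of these lists 2 genes had an unadjusted p under 0.05 in limma without that library, all 4 higher, beside 4.92% of all tested genes. Named after their values were seen, they were the scaffold gene KSR1, with a log2 change of 0.46, the MEK gene MAP2K2, with 0.24, and the receptor genes AXL, with 0.36, and ERBB3, with 0.24. With all libraries the same 4 changes were -0.26, 0.01, -0.06 and -0.35. The RAS gene NRAS had 27.1, 26.7 and 21.95 TPM with LL-37, against 30.9, 27.9 and 29.25 TPM in Ctrl. ARAF, a RAF kinase gene, had 51.7, 52.65 and 48.7 TPM, against 56.2, 54.25 and 57.2 TPM. These were the 2 cascade genes whose groups did not overlap, both lower in TPM, where 10.3% of all tested genes were lower without overlap. Their log2 changes were -0.21 and -0.13, beside the median of -0.20 for all tested genes. Without LL-37 replicate 3 they were -0.12 and -0.10.

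Of 18 tested negative regulators, SPRY1, another Sprouty gene, was the 1 without overlap, beside 10.3% of all tested genes that were lower without overlap. It had 7.23, 7.25 and 3.54 TPM with LL-37, against 8.67, 7.51 and 8.78 TPM in Ctrl. Its log2 change was -0.46, or -0.17 if LL-37 replicate 3 was left out. The 18 had a median log2 change of -0.34 over the 6 libraries and 0.05 over those 5. Over those 5, 4 were higher and 1 lower without overlap, beside 12.3% and 12.9% of all tested genes. DUSP10, another phosphatase gene, was the 1 of the 18 with an unadjusted p under 0.05 in limma there. It was higher, beside 4.92% of all tested genes that were higher at that level, and was named after its values were seen. Its log2 change was 0.38 with an adjusted p of 0.173 in limma, against a log2 change of 0.19 with all libraries. The 16 other outputs had a median log2 change of -0.15 over the 6 libraries, and of 0.16 over the 5 without LL-37 replicate 3, beside -0.20 and 0.00 for all tested genes. Without that library 9 of the 16 were higher without overlap and 0 lower, beside 12.3% and 12.9% of all tested genes. In limma 7 of 16 had an unadjusted p under 0.05, all higher, beside 4.92% of all tested genes that were higher at that level. The list was chosen with earlier results of these data known, and these counts rest on 2 LL-37 libraries. Of the 16, the uridine phosphorylase gene UPP1 was the 1 without overlap with all libraries, higher with LL-37, beside 2.13% of all tested genes. It had 28.8, 28.1 and 33.55 TPM with LL-37, against 24.0, 26.96 and 26.3 TPM in Ctrl. Its log2 change was 0.22, or 0.14 without LL-37 replicate 3. Chosen after the values were seen, the AP-1 subunit gene FOSL1 had 126, 104 and 55.7 TPM, against 90.4, 80.8 and 84.5 TPM, and the cytokine gene LIF had 21.2, 20.4 and 8.80 TPM, against 13.6, 12.6 and 15.5 TPM. HMGA1, a chromatin protein gene, had 1134, 1041 and 605 TPM, against 878, 860 and 894 TPM. In limma without LL-37 replicate 3 the adjusted p was 0.162 for FOSL1, 0.108 for LIF and 0.0911 for HMGA1, with log2 changes of 0.43, 0.55 and 0.31. With all libraries their log2 changes were 0.08, 0.17 and 0.03, with adjusted p-values of 0.892, 0.811 and 0.957 in limma. In all 3, as in ETV4, replicates 1 and 2 were above every Ctrl library and replicate 3 below every one. None of the 12 tested ETS factors outside the PEA3 group passed in limma with either set of libraries, and their median log2 change was -0.33 with all and 0.02 without LL-37 replicate 3. ETV2 was the 1 of them higher without overlap with all libraries, beside 2.13% of all tested genes. It had 2.02, 2.12 and 2.96 TPM with LL-37, against 0.72, 1.63 and 1.94 TPM in Ctrl. Without LL-37 replicate 3, ETV2 and ELK1 were higher without overlap and 0 were lower, beside 12.3% and 12.9% of all tested genes.

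**Figure D5:**
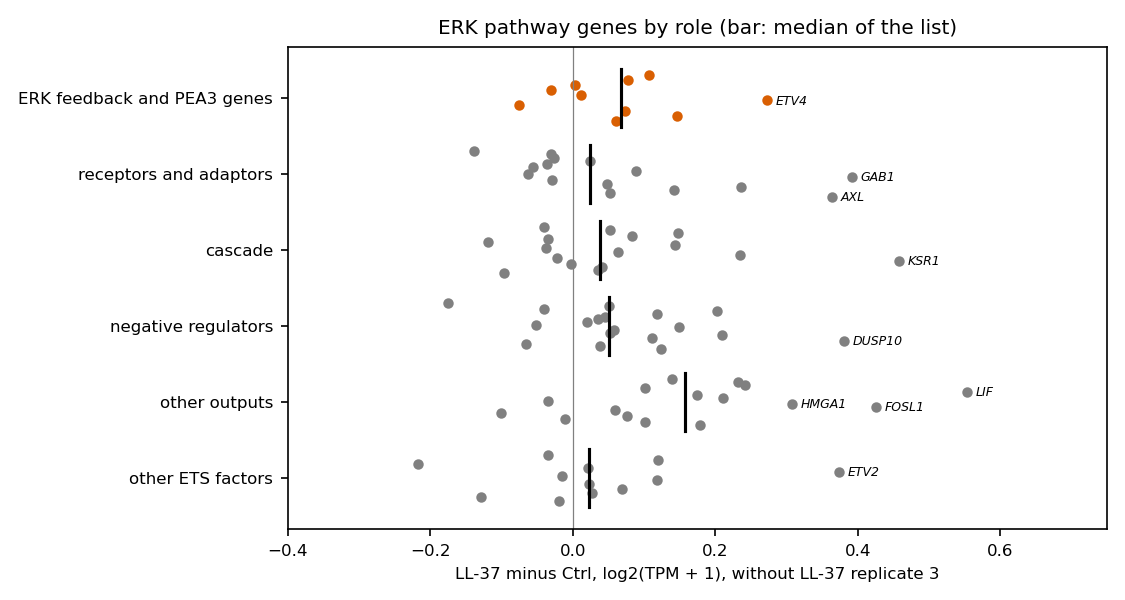
Log2 change of LL-37 minus Ctrl without LL-37 replicate 3, log2(TPM + 1), for each tested gene (points) of the 10 feedback and PEA3 genes (orange) and of 5 lists of other ERK pathway genes (grey), with black bars for list medians. The other outputs have the highest median, at 0.16, and ETV4 at 0.27 is the rightmost orange point.

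By root mean square difference of log2(TPM + 1) values centred over the 6 libraries, the nearest of 86 candidate genes was HMGA1 for ETV4, at 0.04, SOS1 for SPRED2, at 0.02, and EGFR for both SPRY2, at 0.02, and DUSP6, at 0.05. For DUSP4 it was ELF4, at 0.03, for DUSP5 FLI1, at 0.05, for SPRY4 SPRED3, at 0.05, for ETV1 HMGA2, at 0.05, and for ETV5 GABPA, at 0.04. ETV5 was nearest to SPRED1, at 0.05, and no other member was the nearest gene of a member. In each of the 10 profiles the lowest library is LL-37 replicate 3.

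Annotated neighbours on the opposite strand could share reads if counting ignored strand, which is not given in the sources used here. DHX8, an RNA helicase gene whose annotation overlaps ETV4, had 42.4, 38.7 and 15.6 TPM with LL-37, against 41.4, 39.9 and 42.4 TPM in Ctrl, and unlike ETV4 was not above the Ctrl range in replicates 1 and 2 alike. SPRY4-AS1 had 2.06, 1.97 and 1.64 TPM, against 3.84, 1.83 and 1.99 TPM. The RNA antisense to DUSP6 (ENSG00000274021) had 2.24, 2.21 and 1.05 TPM, against 0.70, 2.31 and 1.41 TPM. ETV5-AS1 was listed at 0 throughout. ENSG00000285601, which starts 624 bases from DUSP4 on the other strand, was at 0.17 to 0.35 TPM with LL-37 and 0.29 to 0.40 TPM in Ctrl. DGKG, a lipid kinase gene that overlaps ETV5 on the same strand, had 5.46, 3.97 and 3.04 TPM, against 5.12, 3.89 and 6.32 TPM. DUSP5-DT, a noncoding RNA that starts 1634 bases from DUSP5 on the other strand (chromosome 10, 110428840 to 110496204, GRCh38), had 1.29, 1.79 and 1.35 TPM with LL-37, against 56.45, 12.4 and 1.87 TPM in Ctrl. The Ctrl libraries thus spread far more for DUSP5-DT than for DUSP5 itself, which stayed between 24.96 and 27.9 TPM in them.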

How the data were processed

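Expression was taken from the human gene table, deposited by the authors in TPM. The mouse skin libraries were not used. GRCh38 is named in the submitters' processing notes, and which aligner, quantifier and annotation release made the values is not given in the sources used here. Libraries were stranded poly(A) preparations, per the labels' protocols. Symbols were assigned to 62541 of 63140 Ensembl identifiers by lookup.

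Values were analysed as log2(TPM + 1), a scale that understates the change of low genes. The filter kept genes reaching 1 TPM in 3 or more of the 6 libraries. The test was limma (version 3.58.1, R version 4.3.3, intensity trend, two-sided), and p-values were adjusted over all tested genes with Benjamini-Hochberg. The fit was checked on simulated data. The 10 genes, the lists and the rule for named genes were chosen with earlier results of these data known. That rule took the 10 genes, in each list up to 2 genes each way with at least 5 TPM and no overlap, neighbours on the other strand, NF1, CIC and the nearest profiles. Among the genes named outside that rule were KSR1, MAP2K2, AXL, ERBB3, DUSP10, FOSL1, LIF and ELK1. ETV2, which stayed under 5 TPM, and DGKG, on the same strand as ETV5, were also outside it. Beyond naming biological triplicates the sources do not describe separate cultures, so p-values measure the spread between these libraries. Longest transcripts and positions came from GENCODE 29, with lengths for 96.4% of tested genes. Alternatives were other pseudocounts, filters, scalings, a replicate block, each library left out and removal of length trends.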

Additional observations from a re-analysis of the deposited data

How the results depend on the processing

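No alternative gave a call for any of the 10 genes or the other ERK pathway genes, so both counts stayed at 0, and the lowest adjusted p of the 10 was 0.124 in limma, for ETV4 with LL-37 replicate 3 left out and length trends removed. The alternatives for the other pathway genes and for ratios were chosen after seeing the data. Of 180 values of single genes under an alternative, 145 kept their direction and 35 took the opposite one. With median-of-ratios scaling, which moved the median of all tested genes from -0.20 to 0.00, log2 changes were 0.0295 for DUSP5, 0.062 for DUSP6, 0.0551 for SPRY2 and 0.24 for ETV4. With quantile normalization they were 0.034 for DUSP5 and 0.10 for ETV4. With length trends removed they were 0.0891 for DUSP6, 0.0758 for SPRED1 and 0.12 for ETV4. With LL-37 replicate 3 left out and median-of-ratios scaling they were 0.0614 for DUSP4, 0.15 for DUSP5, 0.0738 for DUSP6, 0.0777 for SPRY2, 0.11 for SPRY4, 0.0041 for SPRED2, 0.27 for ETV4 and 0.0119 for ETV5. Leaving that library out and also removing length trends gave 0.0631, 0.14, 0.0751, 0.0755, 0.11, 0.0051, 0.27 and 0.013 in the same order. Over each library left out in turn, log2 changes ran from -0.57 to 0.061 for DUSP4, -0.38 to 0.15 for DUSP5, -0.36 to 0.0734 for DUSP6, -0.34 to 0.0773 for SPRY2, -0.79 to 0.11 for SPRY4, -0.43 to -0.03 for SPRED1, -0.80 to 0.0036 for SPRED2, -0.71 to -0.08 for ETV1, -0.16 to 0.27 for ETV4 and -0.44 to 0.0115 for ETV5. The median of the 10 ran from -0.43 to 0.07. The count of the 10 whose groups did not overlap was 2 with median-of-ratios scaling (12.6% of all tested genes) and 0 with length trends removed (12.8%). It was also 0 without mitochondrially encoded genes (11.7%), and 1 to 3 over libraries left out. It was 3 both without LL-37 replicate 3 (25.1%) and without Ctrl replicate 2 (26.7%), and 1 without each other library (15.5% to 28.2%). With LL-37 replicate 3 left out, it was 5 under median-of-ratios scaling (27.9%) and 4 with length trends removed (30%). Pairs whose ratio did not overlap numbered 15 to 22. Deviations of same-numbered libraries from their group means correlated at 0.09, -0.20 and -0.17. Those of LL-37 replicates 1 and 3 with Ctrl replicate 2 correlated at -0.21 and 0.25. The group means include LL-37 replicate 3, so these values cannot show whether replicate numbers pair the libraries. With the replicate block the median stayed at -0.28 with adjusted p-values of 0.837 to 0.992 in limma. The cause of these shifts was not tested. TPM keep no depth, so counting error is unknown.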
